A study of Mus musculus with 5 samples.

Results

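Aminoacyl-tRNA synthetases were followed by name through RNA sequencing of mouse tumours and normal pancreas. The 36 genes were taken by gene symbol, 20 encoding cytosolic enzymes and 16 encoding mitochondrial enzymes, whose symbols end in 2. All 36 were found among the 55573 genes of the table, and all 36 were among the 16810 genes with enough counts to be tested. The tumours were 3 samples of genotype Th-Cre:MYC, in which Cre, driven by the promoter of tyrosine hydroxylase (a gene of catecholamine-producing cells), releases MYC from a stop cassette (CAG-STOPflox/flox-MYC). Tumour growth had been followed by ultrasound. The comparison samples were normal pancreas of 2 Wild Type littermates, taken after perfusion with RNAlater, which the labels describe for the pancreas and not for the tumours. The labels give no age, sex or batch. The numbers that open the column headers run in separate blocks for tumours and normal pancreas, and no label says what they mean. The titles of tumours 1 and 2 share a number that tumour 3 lacks, and no label says whether they came from the same animal, so the p-values cover the spread among these libraries alone, some of which may be technical.

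Each synthetase joins 1 amino acid to its own tRNAs, which is the step where the genetic code is read into protein chemistry. Cells keep separate enzymes for the cytosol and for the mitochondrion, nearly all of them from separate nuclear genes. Gars and Kars are exceptions: each makes both forms, so the counts of these genes cover both compartments. Eprs joins the enzymes for glutamate and proline in a single protein, and Farsa and Farsb are the subunits of the enzyme for phenylalanine. Acinar cells of the exocrine pancreas make digestive enzymes at a very high rate, and synthetase genes of the cytosol are among the known targets of ATF4, a transcription factor of the amino acid and unfolded protein responses. MYC is known as a driver of genes for protein synthesis.

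The libraries of the tissues differed in depth and in cell type markers. Library totals ran from 6611967 to 15074489 estimated counts in tumours and from 48848987 to 51669489 in normal pancreas, and the synthetases held 11969 to 28144 of these in tumours and 45503 to 59015 in normal pancreas. Levels per transcript length are given as TPM, which RSEM scales to the same sum in every library. The 9 acinar markers summed to 10.8 to 758 TPM in tumours, against 339973 to 342121 TPM in normal pancreas, and all 9 fell. The 8 endocrine and neuroendocrine markers summed to 12348 to 32036 TPM in tumours, against 42.1 to 42.7 TPM in normal pancreas, with 6 called higher. Summed levels of the other lists were 11.3 to 18.3 TPM in tumours and 11.7 to 13.3 TPM in normal pancreas for 4 duct markers, 71.1 to 112 TPM and 31.5 to 39.9 TPM for 5 fibroblast and pericyte markers, 17.95 to 20.1 TPM and 5.21 to 6.23 TPM for 3 endothelial markers, and 6.51 to 23.8 TPM and 2.28 to 4.35 TPM for 6 leukocyte markers. No marker was at 0 throughout either group. Genes annotated as miscellaneous RNA took 22.0% to 25.3% of tumour counts and at most 0.00116% of normal counts. The part of these differences in the results was not tested, and in bulk tissue fewer cells of a type cannot be told apart from less RNA per cell.

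Because the libraries differ so much, the scaling between them sets the sign of many changes. The log2 fold changes given here, tumour over normal pancreas, come from edgeR's quasi-likelihood test with TMM scaling, and CPM values are counts scaled to the TMM-adjusted library size, as edgeR gives them. On that scale the median change of all 16810 genes was 0.38. Scaling by total counts moved it to 3.55, scaling by the upper quartile to 0.51, and TPM values (log2 of TPM + 1) to 0.92. A scaling of counts moves all genes of a library by the same factor, so the place of a gene relative to the median gene is nearly fixed whichever is used. The median of the cytosolic synthetases minus that of all genes was -1.48 log2 units with TMM and -0.45 in the TPM fit, which also differs in its filter and takes in length. For the mitochondrial synthetases the same difference was -0.68 with TMM and -0.17 in the TPM fit.

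With TMM scaling, 18 of the 20 cytosolic synthetases fell and none rose (adjusted p under 0.05, edgeR with Benjamini-Hochberg adjustment), where 27.8% of all genes tested were called lower, 39.2% higher and 67% in either direction. Total counts instead gave 1 lower (2.37% of all genes were) and 19 higher (93.3% of all genes), and the TPM fit gave 5 lower (8.85% of all genes) and 10 higher (67.4% of all genes). Their median log2 fold change was -1.10, and the range ran from -4.24 for Wars to 0.09 for Eprs. All 20 lay below the median gene with TMM, with no filter and among protein-coding genes alone, and 18 of 20 did so in the TPM fit. Of the mitochondrial enzymes, 3 fell, 1 rose and 12 did not pass the test with TMM scaling, against 1 lower and 15 higher by total counts and 1 lower and 10 higher among the 13 that the TPM fit could test. Their median was -0.30, and 14 of 16 lay below the median gene with TMM, 16 with no filter and 13 among protein-coding genes alone. In the TPM fit 8 of the 13 tested did so. Read as CPM without a test, every tumour lay below both normal libraries in 18 of 20 cytosolic and 9 of 16 mitochondrial enzymes (34.2% of all genes), and every tumour lay above in 0 and in 1 (46.8% of all genes).

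**Figure D1:**
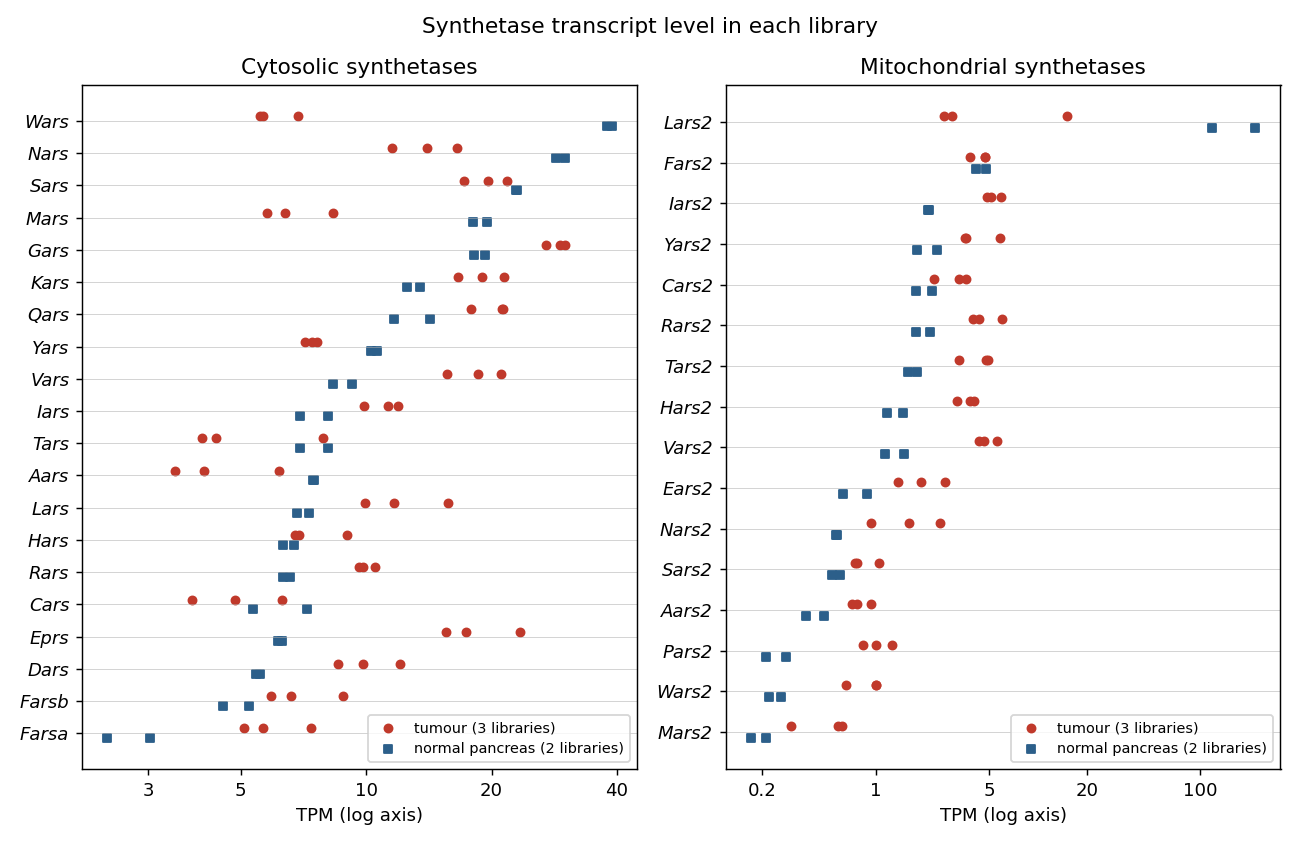
Transcript level of each synthetase in TPM on a log axis, with 1 point per library (circles for 3 tumours, squares for 2 normal pancreas libraries) and genes ordered by their normal level. Wars leads the normal libraries at 38.9 and 37.9 TPM and lies at 5.55 to 6.85 TPM in the tumours, and Lars2 stands far above the other mitochondrial enzymes in normal pancreas.

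**Figure D2:**
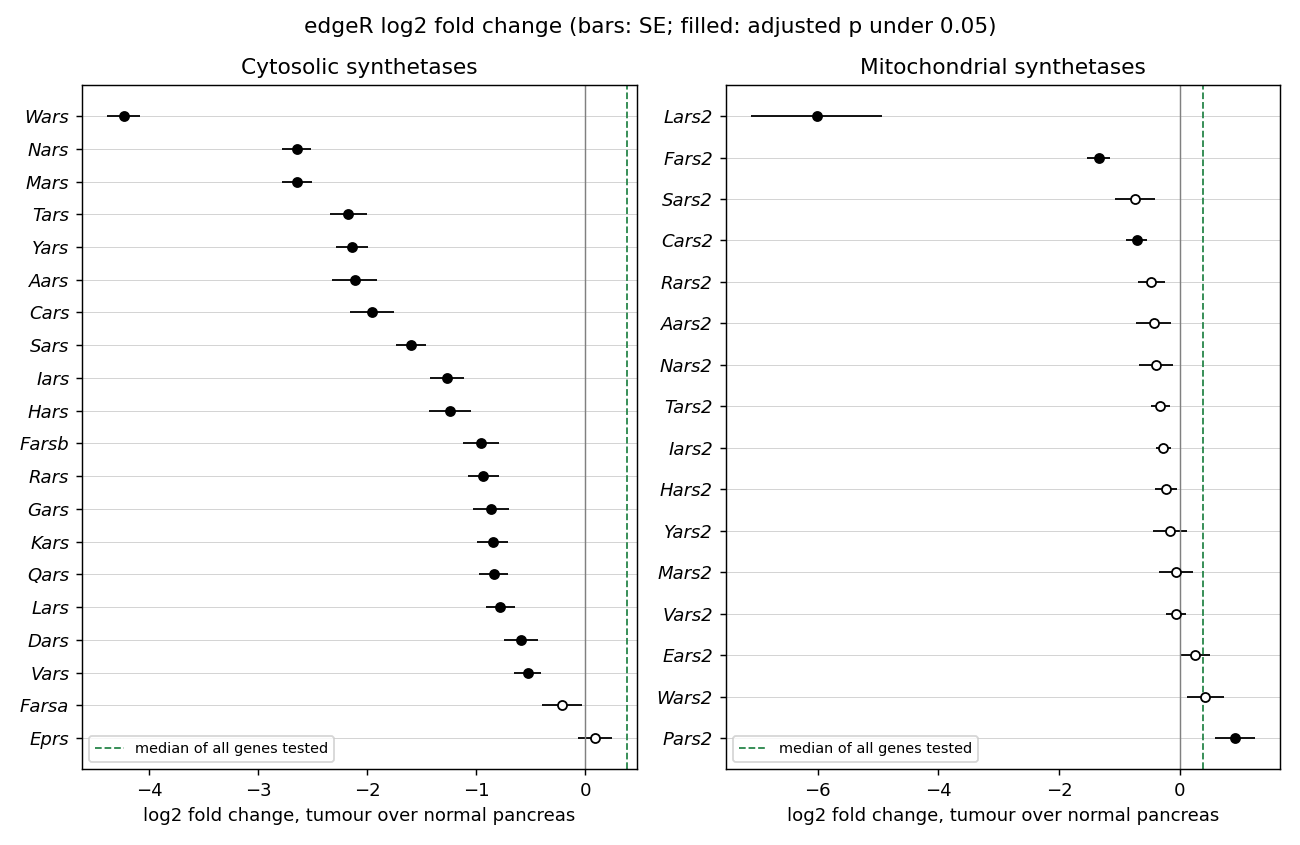
Log2 fold change of each synthetase, tumour over normal pancreas, with TMM scaling (bars are standard errors, filled points passed an adjusted p of 0.05, the dashed line is the median of all genes at 0.38). All 20 cytosolic and 14 of 16 mitochondrial enzymes lie left of the dashed line, and total-count or TPM scaling would move most points to the right of 0.

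Wars, the enzyme for tryptophan, changed most among the cytosolic synthetases. It is long known as an abundant protein of the pancreas in cattle and is induced by interferon in human cells. Wars had 16, 15.1 and 17.04 CPM in the tumours, against 303.5 and 300.6 CPM in normal pancreas. The groups lay far apart, with little spread inside either. Its log2 fold change was -4.24 (SE 0.15, adjusted p = 1.75e-05, edgeR), an 18.8-fold lower level in tumours, and 2.30% of all genes tested had a lower value. It stayed below 0 under each scaling tried, at -1.06 with total counts and -2.49 in the TPM fit. Wars lies on mouse chromosome 12, from 108860030 to 108894174 on the minus strand (GRCm38, GENCODE M21). It overlaps the opposite-strand gene Wdr25 by 544 bases, and Wdr25 had 38 to 115 counts in tumours and 46 to 47 in normal pancreas.

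Nars and Mars followed at nearly equal distance. Nars, the enzyme for asparagine, had 34.8, 32.8 and 34.3 CPM in tumours, against 208.5 and 217.9 CPM in normal pancreas. Its log2 fold change was -2.65 (SE 0.13, adjusted p = 3.2e-05, edgeR). Tumours were low and normal libraries high without overlap. Mars, which charges methionine for both initiation and elongation, had 17.5, 15.7 and 18.1 CPM in tumours, against 101.5 and 112.6 CPM in normal pancreas, a log2 fold change of -2.65 (SE 0.14, adjusted p = 3.47e-05, edgeR). Neither group reached into the range of the other. Mars overlaps Ddit3, an ATF4 pathway gene on the opposite strand, by 68 bases, and the sources used here do not say whether counting used strand. Total counts turned both to 0.53, while the TPM fit kept them at -1.02 for Nars and -1.35 for Mars, both called.

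Tars, Yars, Aars, Cars and Sars formed the next group. Tars, for threonine, had 19.8, 14.2 and 16.4 CPM in tumours, against 75.9 and 76.1 CPM in normal pancreas (log2 fold change -2.18, SE 0.17, adjusted p = 0.000115, edgeR). Yars, for tyrosine, had 16.8, 18.8 and 21.4 CPM in tumours, against 83.8 and 83.5 CPM in normal pancreas (-2.14, SE 0.15, adjusted p = 7.67e-05, edgeR). For both genes every tumour lay below both normal libraries by a wide margin. Aars, for alanine, had 28.1, 17.8 and 25.2 CPM in tumours, against 101.0 and 104.2 CPM in normal pancreas (-2.12, SE 0.21, adjusted p = 0.000268, edgeR). Cars, for cysteine, had 11.8, 7.87 and 10.8 CPM in tumours, against 36.3 and 42.6 CPM in normal pancreas (-1.96, SE 0.20, adjusted p = 0.00032, edgeR). Tumour 2 was the lowest library for Aars and for Cars, and the groups again did not overlap. Sars, whose seryl-tRNA is also the starting point for selenocysteine, had 40.7, 45.4 and 48.1 CPM in tumours, against 134.7 and 135.7 CPM in normal pancreas (-1.60, SE 0.14, adjusted p = 0.000157, edgeR). With total counts these 5 genes had log2 fold changes of 1.0 to 1.58, and in the TPM fit they lay between -0.63 and -0.23, with Aars and Yars called lower and Tars, Cars and Sars not past the threshold.

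The synthetases usually named as ATF4 targets were compared with the other cytosolic enzymes, as lists chosen with earlier results of these data known. Of the 12 named targets, 11 fell with TMM scaling and Eprs did not pass, with a median log2 fold change of -2.04. Of the 8 others, 7 fell and Farsa did not pass, with a median of -0.85. All 8 genes with the largest falls, Wars to Sars, were on the list of targets, which holds 12 of the 20 cytosolic enzymes. The 18 other genes of the ATF4 pathway that were looked up all fell with TMM scaling (27.8% of all genes did), between -1.0 for Sesn2 and -9.66 for Nupr1, with a median of -2.90. Asns, which makes asparagine, had 24.0, 27.3 and 28.7 CPM in tumours, against 534.9 and 502.6 CPM in normal pancreas (-4.28, adjusted p = 2.37e-05, edgeR), and Atf5, a relative of ATF4, had a log2 fold change of -5.68 (adjusted p = 2.37e-05, edgeR). Both were low in every tumour, without overlap, and stayed below 0 with total counts (-1.11 and -2.48). With total counts the 3 medians became 1.14 for the named targets, 2.34 for the other cytosolic enzymes and 0.28 for the other pathway genes, an upward shift shared by all genes, and in the TPM fit they were -0.37, 0.58 and -1.69. The 9 acinar markers fell as well, as given above, unlike Eprs and Farsa, and the part of acinar cells in these changes was not tested.

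The proximal promoters of these genes were searched for letters known from ATF4 sites, a search chosen with the fold changes known. RefSeq promoter windows (GRCm38.p6, 250 bases before and 50 after the transcript start) were at hand for 27 of the 36 members, 13 cytosolic and 14 mitochondrial. TGATGNAA, the core of the element that C/EBP and ATF proteins bind, was sought on both strands and occurs in 3.97% of all 32851 windows. It was found in 5 of the 13 cytosolic windows, all of them among the 8 windows of named targets, in 0 of the 5 other cytosolic windows and in 0 of the 14 mitochondrial windows. The list of named targets may itself rest in part on such sites, so these counts are no independent check of the list. Of the 8 enzymes with the largest falls, Wars, Nars and Cars had no window to search, Mars and Sars had windows without a match, and Tars, Yars and Aars had a match. The 5 promoters that hold it are shown from 120 bases before the start to 30 after it, read along the gene's strand, with each match in capitals (on the opposite strand the motif reads TTNCATCA).
Aars (chr8:111033722-111033871, plus strand): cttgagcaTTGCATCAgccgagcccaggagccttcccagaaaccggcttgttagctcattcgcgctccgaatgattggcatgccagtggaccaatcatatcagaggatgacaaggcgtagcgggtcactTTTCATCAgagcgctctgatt
Gars (chr6:55037881-55038030, plus strand): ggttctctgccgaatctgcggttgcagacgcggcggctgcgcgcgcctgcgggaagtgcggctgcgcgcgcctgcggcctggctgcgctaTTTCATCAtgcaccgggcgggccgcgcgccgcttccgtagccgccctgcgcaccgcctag
Iars (chr13:49682010-49682159, plus strand): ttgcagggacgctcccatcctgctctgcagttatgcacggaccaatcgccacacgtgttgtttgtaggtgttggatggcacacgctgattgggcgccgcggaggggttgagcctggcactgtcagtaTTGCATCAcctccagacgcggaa
Tars (chr15:11399629-11399778, minus strand): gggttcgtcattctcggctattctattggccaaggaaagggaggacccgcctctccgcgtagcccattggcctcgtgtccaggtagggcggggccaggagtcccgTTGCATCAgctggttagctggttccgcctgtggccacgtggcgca
Yars (chr4:129189783-129189932, plus strand): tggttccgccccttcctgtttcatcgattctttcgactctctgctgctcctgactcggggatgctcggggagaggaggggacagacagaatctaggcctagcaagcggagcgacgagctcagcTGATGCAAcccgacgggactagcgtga
Matches began at position 10 and at -112 in Aars, which has a pair of them, and at -30 in Gars, 8 in Iars, -15 in Tars and 4 in Yars, counted from the first transcribed base as 1. Of these 5 genes, Aars, Tars and Yars fell by over 2 log2 units, while Gars fell by 0.86 and Iars by 1.27. CACGTG, the E-box that MYC and its partner MAX bind, reads the same on both strands and occurs in 7.15% of all windows. It was found in 4 of 13 cytosolic windows (Aars at -146, Iars at -69, Tars at 20 and Farsb at -39) and in 1 of 14 mitochondrial windows (Ears2 at 22). These are matches of letters and not measured sites, and the part of ATF4 or MYC in the fold changes was not tested.

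The other 10 genes called lower moved less, between -1.27 and -0.53, and their sign depends on the scaling: total counts and the TPM fit both turned all 10 above 0. Iars (isoleucine) and Hars (histidine) led them at -1.27 (SE 0.16, adjusted p = 0.000641, edgeR) and -1.24 (SE 0.19, adjusted p = 0.00173, edgeR). Hars shares 198 bases at its start with Hars2 on the opposite strand, so reads there cannot be assigned without strand. Farsb, Rars (arginine), Gars (glycine), Kars (lysine), Qars (glutamine) and Lars (leucine) lay between -0.95 and -0.78 with adjusted p-values of 0.00162 to 0.00418. In Gars, the most abundant of all 20 in each tumour by TPM, levels were 69.6, 66.8 and 87.4 CPM in tumours, against 138.0 and 132.9 CPM in normal pancreas. Every tumour lay below both normal libraries. Dars (aspartate) and Vars (valine) were the smallest changes to pass, at -0.59 (adjusted p = 0.0152) and -0.53 (adjusted p = 0.0087, edgeR). Both calls rest on having 2 normal libraries: without normal replicate 1 the adjusted p was 0.0733 for Dars and 0.0790 for Vars, and without normal replicate 2 it was 0.110 and 0.0674.

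Eprs and Farsa did not pass the test. Eprs had 117.1, 93.5 and 101.3 CPM in tumours, against 95.3 and 100.2 CPM in normal pancreas. The groups overlapped, with a log2 fold change of 0.09 (SE 0.15, adjusted p = 0.63, edgeR). Farsa had 10.8, 14.3 and 12.05 CPM in tumours, against 15.95 and 12.7 CPM in normal pancreas (-0.21, SE 0.19, adjusted p = 0.34, edgeR). Here too the groups overlapped, in tumour 2. In the TPM fit both were called higher, Eprs at 1.44 and Farsa at 0.92.

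The order of the cytosolic enzymes within a library, which no scaling between libraries touches, differed between the tissues. Wars made up 2.63%, 2.33% and 2.61% of the summed cytosolic TPM in tumours, against 16% and 15.8% in normal pancreas. It ranked between 15 and 17 of 20 in the tumours and led both normal libraries. Nars ranked 7 in each tumour and 2 in both normal libraries, and Mars ranked 12 to 16 in tumours and 4 and 5 in normal pancreas. Eprs went the other way, with 9.01%, 7.19% and 7.31% of the sum in tumours, against 2.53% and 2.61% in normal pancreas. Its rank was 2, 6 and 6 in tumours and 16 and 17 in normal pancreas. Gars led in every tumour, at 11.2% to 13.8% of the sum, and held 7.57% to 7.95% in normal pancreas. The summed cytosolic TPM itself was 260, 242 and 212 in tumours, against 243 and 240 in normal pancreas, so the groups overlapped in the total while its makeup differed.

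Mitochondrial synthetases are needed for the few proteins that the mitochondrial genome encodes, all of them parts of the respiratory chain and ATP synthase. Lars2, for leucine, dominated this group in normal pancreas. Lars2 had 9.41, 9.01 and 74.0 CPM in tumours, against 2559 and 1422 CPM in normal pancreas. Tumour 3 was far above the other tumours, and all tumours were far below both normal libraries. The log2 fold change was -6.02 (SE 1.09, adjusted p = 0.0033, edgeR), and without tumour 3 it was -7.73. It stayed below 0 with total counts (-2.95) and in the TPM fit (-4.72). By TPM it took 6.23%, 5.29% and 29.3% of all mitochondrial synthetase transcripts in the tumours, against 91.4% and 85.9% in normal pancreas. Lars2 spans bases 123366927 to 123462666 of chromosome 9, plus strand (GRCm38, GENCODE M21).

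Of the readouts looked up beside Lars2, some had its order of libraries and others did not. The mean transcript length of Lars2, which RSEM weights by abundance, was 3049, 3077 and 3639 bases in tumours, against 3755 and 3753 bases in normal pancreas. Tumour 3, the tumour with most Lars2, was nearest to the normal length. Gm42418, an annotated gene that is known to lie in ribosomal RNA sequence, took 0.169%, 0.214% and 0.685% of counts in tumours, against 0.212% and 0.101% in normal pancreas, and was highest in tumour 3 as well. On the TMM-scaled CPM used for Lars2, Gm42418 had 678, 834 and 3138 CPM in tumours, against 7824 and 3831 CPM in normal pancreas. On that scale it was lower in every tumour than in both normal libraries, as Lars2 was. AY036118, another gene looked up, went the other way. It had 53.1, 25.2 and 4.59 CPM in tumours, against 0.679 and 0 CPM in normal pancreas. Among the tumours it was lowest in tumour 3. Lars2 had 1.39, 1.08 and 2.36 counts per 100 counts of Gm42418 in tumours, against 32.7 and 37.1 in normal pancreas. A sequence search aligned 72 bases of the 2 longest Lars2 transcripts (positions 3278 to 3349 of the 3894-base form) with Gm15564 at 98.6% identity. Gm15564 held at most 3 counts in any library, and no alignment with Gm42418 was found. Alignments with mt-Rnr1, a ribosomal RNA of mitochondria, were 14 or 27 bases long. That gene had 706, 822 and 1836 CPM in tumours, against 149 and 132 CPM in normal pancreas, higher in every tumour. The part of ribosomal RNA in the Lars2 counts was not tested.

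Of the other 15 mitochondrial enzymes, 2 fell and 1 rose with TMM scaling (27.8% of all genes tested were called lower and 39.2% higher). Fars2, for phenylalanine, had 5.18, 7.03 and 5.33 CPM in tumours, against 15.3 and 14.5 CPM in normal pancreas. Tumours lay below both normal libraries, with a log2 fold change of -1.34 (SE 0.19, adjusted p = 0.00114, edgeR), which was -0.014 in the TPM fit and 1.84 with total counts. Cars2, for cysteine, had 5.29, 6.04 and 5.06 CPM in tumours, against 9.45 and 8.54 CPM in normal pancreas (-0.72, SE 0.18, adjusted p = 0.0117, edgeR). It too was lower in every tumour, but its adjusted p was 0.0942 without normal replicate 1 and 0.0575 without normal replicate 2, and total counts and the TPM fit turned it above 0. Pars2, for proline, had 3.22, 2.38 and 2.42 CPM in tumours, against 1.44 and 1.40 CPM in normal pancreas. All tumours were higher, with a log2 fold change of 0.92 (SE 0.33, adjusted p = 0.0468, edgeR). That call was lost without any single library, at adjusted p-values of 0.0529 to 0.155, and with DESeq2 (0.0639).

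The other 12 ranged from -0.74 for Sars2 (adjusted p = 0.0846, edgeR) to 0.42 for Wars2 (adjusted p = 0.257, edgeR). Between these lay Rars2, Aars2, Nars2, Tars2, Iars2, Hars2, Yars2, Mars2, Vars2 and Ears2, from -0.47 to 0.26. Most are weakly expressed: by TPM they lay between 0.30 for Mars2 and 6.04 for Rars2 in tumours, and between 0.17 for Mars2 and 2.39 for Yars2 in normal pancreas. Iars2 varied little within either group, at 25.9, 24.3 and 25.5 CPM in tumours, against 30.7 and 30.3 CPM in normal pancreas (-0.27, SE 0.12, adjusted p = 0.0903, edgeR). The groups did not overlap, but the difference did not pass the threshold. Ears2 charges both glutamate and, in a first step, the tRNA for glutamine. It had 8.56, 7.06 and 5.82 CPM in tumours, against 6.96 and 5.08 CPM in normal pancreas, and these ranges overlapped.

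The balance between the compartments was read within each library, free of the scaling between libraries. With all members, mitochondrial enzymes held 15.4%, 17.0% and 19.4% of the summed synthetase TPM in tumours, against 49.6% and 36.3% in normal pancreas, which is mostly Lars2. With Lars2 left out, an alternative added after its values were seen, the shares were 14.5%, 16.2% and 14.6% in tumours, against 7.81% and 7.46% in normal pancreas. The order of the tissues thus turned with this single gene. Without it, tumours averaged 15.1% ± 0.968 (SD, n = 3) and normal pancreas 7.64% ± 0.248 (SD, n = 2). Summed mitochondrial TPM without Lars2 was 44.3, 46.9 and 36.2 in tumours, against 20.6 and 19.3 in normal pancreas. Tumours were higher, without overlap, on the TPM scale, where 76.1% of all genes tested had every tumour above both normal libraries. On that scale 14 of the 16 mitochondrial and 12 of the 20 cytosolic enzymes had every tumour above, while 1 mitochondrial and 6 cytosolic enzymes had every tumour below (9.39% of all genes did).

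**Figure D3:**
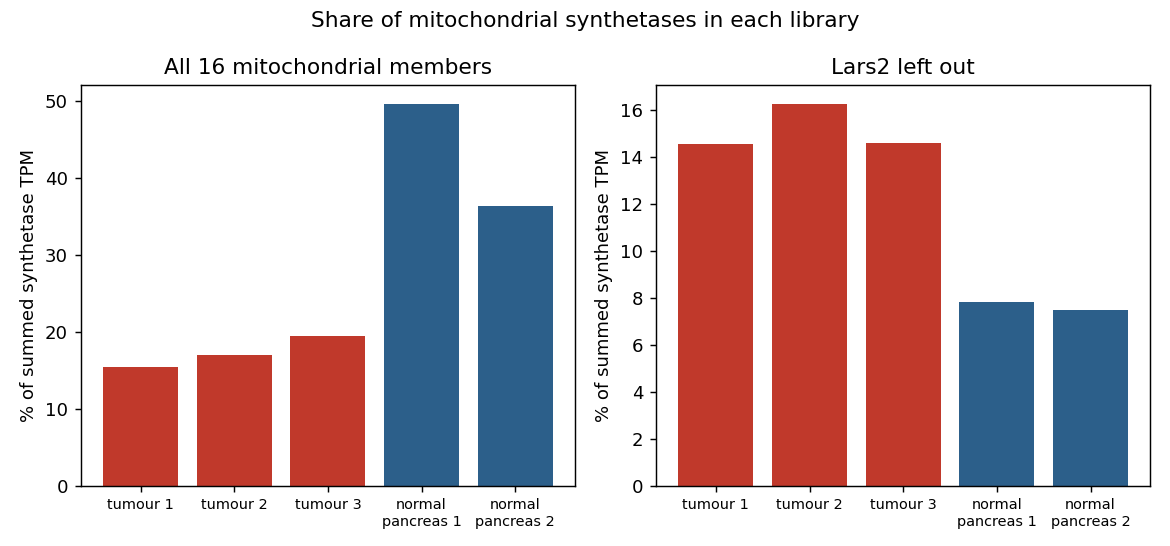
Share of the mitochondrial enzymes in the summed synthetase TPM of each library, as bars from 0, with all 16 mitochondrial members on the left and without Lars2 on the right. The tumours lie below normal pancreas on the left (15.4% to 19.4% against 36.3% to 49.6%) and above it on the right (14.5% to 16.2% against 7.46% to 7.81%).

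Enzymes for the same amino acid were then set against each other, as the log2 ratio of mitochondrial over cytosolic TPM in a library. In 13 of 16 pairs every tumour lay above both normal libraries, in 2 every tumour lay below, and in 1 the groups overlapped. Eprs enters 2 of the pairs, with Ears2 and with Pars2. The share over other pairs of genes was not computed. For single genes by TPM, every tumour lay above in 76.1% of all genes tested and below in 9.39%, so separated groups were common. Tryptophan stood at the top: Wars2 over Wars was -2.76, -2.50 and -3.07 in tumours, against -7.47 and -7.19 in normal pancreas. Wars2 thus had 14.8% of the Wars level in tumours on average, against 0.626% in normal pancreas. Methionine came next, with ratios of Mars2 over Mars of -3.82, -3.36 and -4.27 in tumours, against -6.84 and -6.43 in normal pancreas. For asparagine, Nars2 over Nars was -3.36, -2.49 and -3.62 in tumours, against -5.64 and -5.69 in normal pancreas. All 3 ratios were higher in tumours by 2.51 to 4.55 log2 units, and Wars, Nars and Mars had the 3 lowest fold changes of the cytosolic enzymes.

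Differences in the 10 other pairs with tumours above ran from 0.50 for Pars2 over Eprs to 1.86 for Tars2 over Tars. Threonine was the pair nearest to parity by its mean ratio in tumours, with ratios of -0.69, 0.13 and -0.31 in tumours, against -2.16 and -2.13 in normal pancreas. The pairs that went the other way were Lars2 over Lars, by -5.83, and Fars2 over Farsa, by -1.17. Fars2 over Farsa was -0.56, -0.65 and -0.12 in tumours, against 0.66 and 0.80 in normal pancreas, so the mitochondrial enzyme was the lower of the pair in every tumour and the higher in both normal libraries. Ears2 over Eprs overlapped, with a mean difference of -0.22.

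**Figure D4:**
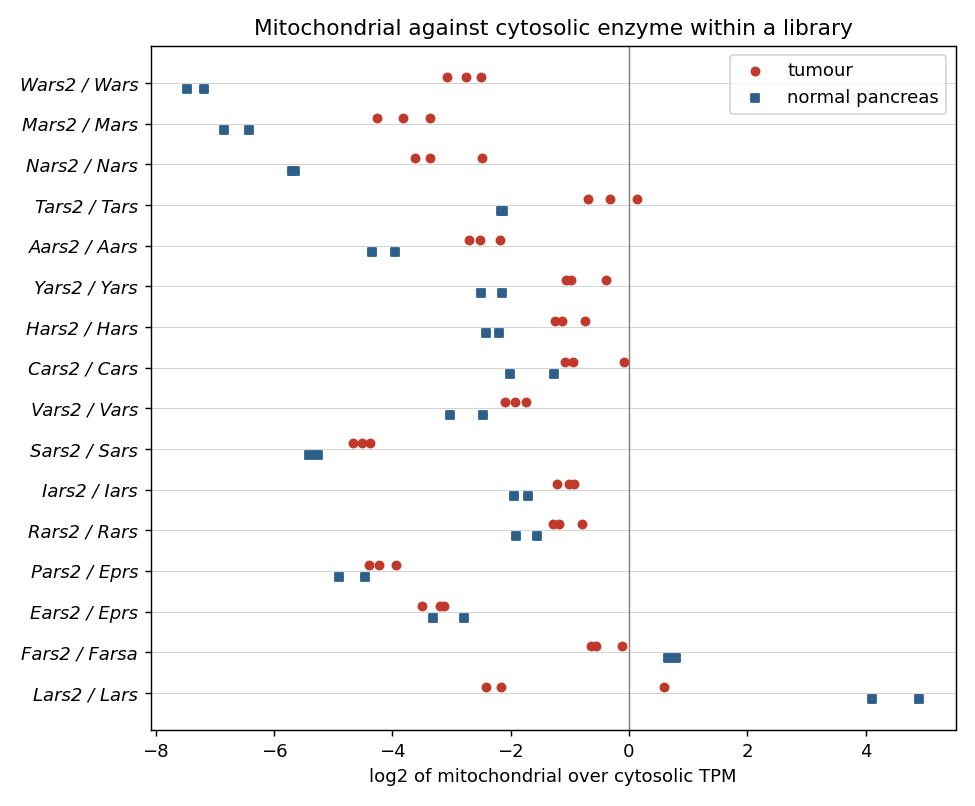
Log2 ratio of mitochondrial over cytosolic TPM for 16 pairs of enzymes, with circles for 3 tumours and squares for 2 normal pancreas libraries. Tumours lie right of normal pancreas in 13 pairs, most widely for Wars2 over Wars (4.55 log2 units), and left of it for Lars2 over Lars and Fars2 over Farsa. The share over other pairs of genes was not computed.

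In mammals 8 of the cytosolic enzymes, Dars, Eprs, Iars, Kars, Lars, Mars, Qars and Rars, are held in the multi-synthetase complex. Of these, 7 fell with TMM scaling, with a median log2 fold change of -0.85, and 11 of the 12 enzymes outside the complex fell, with a median of -1.78. Of all genes tested, 27.8% were called lower. Mars, at -2.65, lay apart from the 7 other members of the complex, which ran from -1.27 to 0.09. Of the scaffold proteins of the complex, Aimp2 fell (-1.42, adjusted p = 0.00201, edgeR) and Aimp1 fell (-0.69, adjusted p = 0.012, edgeR), while Eef1e1 had 8.93, 19.5 and 10.7 CPM in tumours, against 7.49 and 6.70 CPM in normal pancreas (0.88, adjusted p = 0.0667, edgeR). Tumour 2 was the highest for Eef1e1, and without tumour 1 that gene passed the threshold (adjusted p = 0.0178), as it did with DESeq2 (0.0357) and with upper-quartile scaling (0.0435). The call for Aimp1 was lost without normal replicate 1 (0.105), and total counts and the TPM fit turned both Aimp genes above 0. By catalytic class, all 9 class I enzymes and 9 of 10 class II enzymes of the cytosol fell with TMM scaling, with medians of -1.27 and -1.10. Eprs, which holds an enzyme of each class, was counted in neither.

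Genes that work on charged tRNAs did not move as a block. Gatc, Gatb and Qrsl1 form the amidotransferase that completes mitochondrial glutaminyl-tRNA, and Gatc fell (-2.10, adjusted p = 8.63e-05, edgeR), Qrsl1 fell (-0.79, adjusted p = 0.0329, edgeR) and Gatb had a value of -0.05 that did not pass. Qrsl1 lost its call without any single library, at adjusted p-values of 0.0523 to 0.139, and with DESeq2 (0.0697). Mtfmt, which formylates the initiator tRNA of mitochondria, rose (1.14, adjusted p = 0.0134, edgeR), a call lost without normal replicate 1 (0.0864). Of the free-standing editing factors, Prorsd1 (-2.38, adjusted p = 9.62e-05) and Aarsd1 (-1.0, adjusted p = 0.00254) fell, while Ankrd16 (2.58, adjusted p = 0.000205) and Dtd1 (0.71, adjusted p = 0.0456, edgeR) rose. Ankrd16, a cofactor of Aars in mouse that takes up wrongly activated serine, had 11.7, 9.29 and 9.14 CPM in tumours, against 1.51 and 1.84 CPM in normal pancreas. All tumours stood well above the normal libraries, opposite to Aars itself. Total counts turned the negative values of Gatc, Qrsl1, Gatb, Prorsd1 and Aarsd1 above 0. The call for Dtd1 was lost without either normal library, without tumour 2 and without tumour 3, at adjusted p-values of 0.0765 to 0.168.

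On the route from seryl-tRNA to selenocysteine, both Pstk (-0.98, adjusted p = 0.0181) and Sepsecs (-0.90, adjusted p = 0.00292, edgeR) fell with TMM scaling, beside Sars, and Pstk lost its call without normal replicate 1 (0.0655) or normal replicate 2 (0.118). Among 10 genes of tRNA maturation and export, 6 fell and 3 rose (27.8% and 39.2% of all genes tested did), with Xpot, the tRNA exporter, at -1.25 and Rtcb, the tRNA ligase, at -1.14. Of the kinases of eIF2alpha, which sense stress and raise ATF4 translation, Eif2ak1 fell (-2.43, adjusted p = 3.24e-05) and Eif2ak3, the kinase of the endoplasmic reticulum, fell (-1.99, adjusted p = 0.000141, edgeR). Eif2ak4, the kinase that senses uncharged tRNA, had a value of -0.0045 and Eif2ak2 one of 0.55, and neither passed. The phosphatase subunits Ppp1r15a (-2.04, adjusted p = 0.000105) and Ppp1r15b (-1.10, adjusted p = 0.000878, edgeR) fell. Total counts turned each of these negative values above 0.

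The rest of mitochondrial translation was looked up beside the mitochondrial synthetases. Of 78 mitochondrial ribosomal protein genes, 58 fell, 3 rose and 17 did not pass with TMM scaling (27.8% of all genes tested were called lower and 39.2% higher), with a median log2 fold change of -0.99, against -0.30 for the mitochondrial synthetases. Mrps24 (-2.64) and Mrps21 (-1.82) had the smallest p-values. Of 9 mitochondrial translation factors, 4 fell and none rose, with a median of -0.46, led by Tufm, the elongation factor, at -1.19 and Mtif3, an initiation factor, at -1.08. Total counts turned these 4 named genes above 0.

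**Figure D5:**
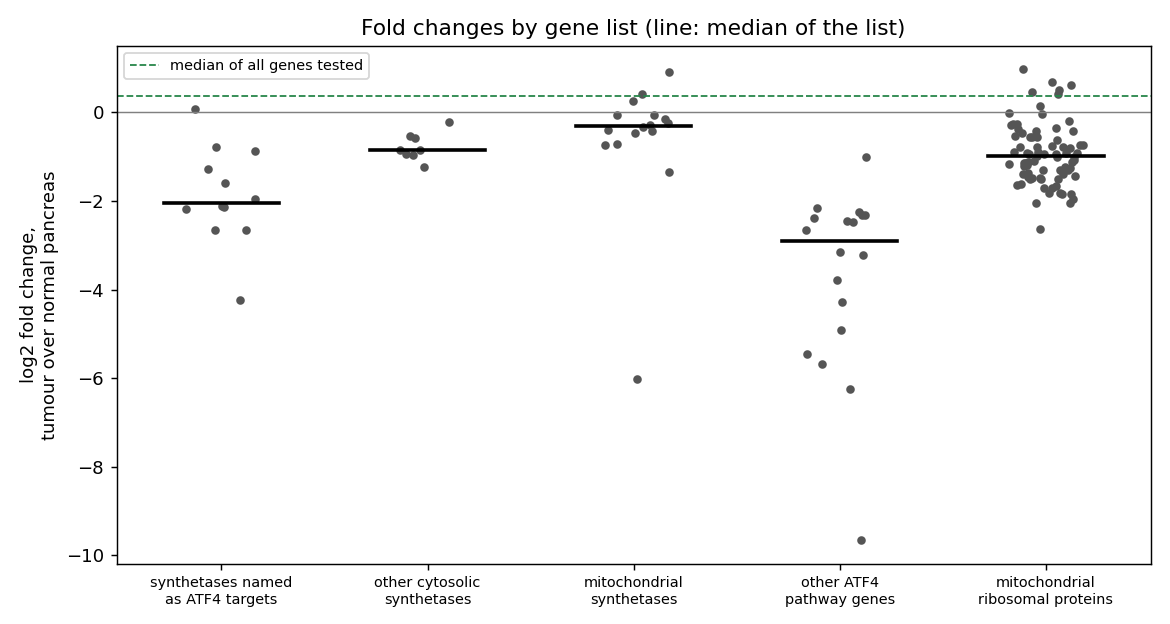
Log2 fold change with TMM scaling, tumour over normal pancreas, of each gene in 5 lists (points), with the median of the list (line) and the median of all genes (dashed, 0.38). The medians are -2.04 for synthetases named as ATF4 targets, -0.85 for the other cytosolic enzymes, -0.30 for mitochondrial enzymes, -2.90 for other ATF4 pathway genes and -0.99 for mitochondrial ribosomal proteins, while total counts put the medians of the named targets, the other cytosolic enzymes and the other ATF4 pathway genes at 1.14, 2.34 and 0.28.

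Mean transcript length gave a readout of transcript makeup that the scaling does not touch. Among cytosolic enzymes, 10 were shorter in every tumour than in both normal libraries, 3 were longer and 7 overlapped, where 25% of genes with at least 20 counts in each library were shorter and 18% longer. Among mitochondrial enzymes, 6 were shorter, 3 were longer and 7 overlapped. Yars averaged 2208, 2258 and 2282 bases in tumours, against 2665 and 2496 bases in normal pancreas. Vars2 averaged 1994, 2202 and 1759 bases in tumours, against 2786.7 and 2646 bases in normal pancreas. Both were shorter in all tumours. Ears2 went the other way, at 3035, 3295 and 3141 bases in tumours, against 2553 and 2562 bases in normal pancreas. TPM values take transcript length in, and CPM values do not.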

How the data were processed

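RNA was sequenced from 3 tumours and 2 normal pancreas samples. The submitters' processing notes name Trim Galore 0.60, STAR 2.7, RSEM 1.31, mm10 and GRCm38. Strandedness, kit and annotation release are not given in these sources. Deposited by the authors were tables of expected counts (RSEM's estimated counts), tables of TPM values, and lengths in bases, a value of another kind. The mean transcript length of each gene, a further deposited value, was used only for the comparison of lengths.

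Counts were rounded and fitted in edgeR 4.0.16 under R 4.3.3 (glmQLFit, glmQLFTest, TMM scaling, filterByExpr) across 16810 genes, with Benjamini-Hochberg adjustment and a threshold of 0.05. Each SE equals the size of the log2 fold change over the square root of F. The 92 spike-in rows, all at 0 counts, were left out. Totals of 6611967 to 51669489 counts limit the precision, and a gene with few counts, such as Pars2, is known less well. The scripts were tested on simulated data. Alternatives were other scalings, DESeq2 1.42.0, no filter, protein-coding genes alone, limma 3.58.1 on log2(TPM + 1) and log2(TPM + 0.1) for genes at 1 TPM or more in at least 2 libraries, tumours 1 and 2 summed, and leaving out each library. On these log2 scales fold changes of low genes are understated. All members were named, with every gene of the lists of up to 6 and the 2 with the smallest p of longer lists. Nupr1 and Sesn2 were added as the ends of their list after their values were seen. The members and lists were chosen with earlier results of these data known. Gene positions are from GENCODE M21, whose identifiers matched 55180 of 55573, and promoters are from RefSeq (GRCm38.p6).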

Additional observations from a re-analysis of the deposited data

How the results depend on the processing

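Scaling decided most directions. The number of cytosolic synthetases called higher was 0, and it was 19 with total counts, 10 with limma on log2(TPM + 1) and 10 on log2(TPM + 0.1). The number called lower was 18, against 1, 5 and 5 under the same settings. For mitochondrial synthetases the number higher was 1, against 15 with total counts, 10 and 10 with limma, and 0 with DESeq2, with no filter and with tumours 1 and 2 summed. The number lower was 3, against 1, 1 and 1 with total counts and both limma fits. Over all genes 6587 were higher and 4669 lower, against 15681 and 398 with total counts, and 1062 and 1061 were lower in the limma fits. Higher calls were 58.5% of all calls with TMM, 97.5% with total counts and 88.4% and 88.6% with limma. The mean mitochondrial share of synthetase TPM, 17.3% in tumours and 42.9% in normal pancreas, was 15.1% and 7.64% without Lars2, and 53.5% in normal pancreas by estimated counts.

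Leaving out 1 library at a time gave 0 to 0 cytosolic synthetases higher, 16 to 18 lower, 0 to 0 mitochondrial higher, 2 to 4 lower, 4631 to 6581 genes higher and 3443 to 4823 lower, and a mitochondrial share of 16.2% to 18.2% in tumours and 36.3% to 49.6% in normal pancreas. Log2 fold changes near 0 that changed sign there ran from -0.23 to 0.16 for Mars2, -0.23 to 0.15 for Vars2, -0.41 to 0.081 for Yars2, -0.078 to 0.013 for Gatb and -0.23 to 0.28 for Eif2ak4. No paired analysis was possible because the labels give the groups no shared replicate numbers.

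With total counts the log2 fold changes that turned above 0 were Aars 1.06, Cars 1.22, Dars 2.60, Farsa 2.97, Farsb 2.23, Gars 2.31, Hars 1.94, Iars 1.91, Kars 2.33, Lars 2.40, Mars 0.53, Nars 0.53, Qars 2.34, Rars 2.24, Sars 1.58, Tars 1.0, Vars 2.65, Yars 1.03, Aars2 2.74, Cars2 2.47, Fars2 1.84, Hars2 2.96, Iars2 2.91, Mars2 3.13, Nars2 2.81, Rars2 2.71, Sars2 2.43, Tars2 2.86, Vars2 3.12, Yars2 3.03, Aimp2 1.77, Aimp1 2.49, Gatc 1.08, Qrsl1 2.39, Gatb 3.13, Prorsd1 0.80, Aarsd1 2.19, Sepsecs 2.29, Pstk 2.22, Eif2ak1 0.75, Ppp1r15a 1.14, Eif2ak3 1.19, Ppp1r15b 2.08, Eif2ak4 3.17, Xpot 1.93, Rtcb 2.04, Tufm 1.99, Mtif3 2.11, Mrps24 0.55 and Mrps21 1.36. With limma on log2(TPM + 1) they were Dars 0.77, Farsa 0.92, Farsb 0.45, Gars 0.59, Hars 0.18, Iars 0.50, Kars 0.51, Lars 0.72, Qars 0.60, Rars 0.56, Vars 0.98, Cars2 0.42, Hars2 1.0, Iars2 1.01, Nars2 0.73, Rars2 0.96, Tars2 0.96, Vars2 1.33, Yars2 0.77, Aimp2 0.040, Aimp1 0.61, Qrsl1 0.30, Gatb 0.94, Aarsd1 0.47, Sepsecs 0.42, Pstk 0.42, Ppp1r15b 0.23, Eif2ak4 0.78, Rtcb 0.30, Tufm 0.31 and Mtif3 0.22. With limma on log2(TPM + 0.1) they were Dars 0.86, Farsa 1.12, Farsb 0.52, Gars 0.62, Hars 0.20, Iars 0.55, Kars 0.54, Lars 0.79, Qars 0.63, Rars 0.62, Vars 1.05, Cars2 0.57, Hars2 1.40, Iars2 1.28, Nars2 1.30, Rars2 1.23, Tars2 1.28, Vars2 1.81, Yars2 0.99, Aimp2 0.042, Aimp1 0.66, Qrsl1 0.57, Gatb 1.47, Aarsd1 0.55, Sepsecs 0.63, Pstk 0.53, Ppp1r15b 0.27, Eif2ak4 1.29, Rtcb 0.31, Tufm 0.34 and Mtif3 0.31. Aars2, Mars2 and Sars2 were under the TPM filter and have no value there. Values near 0 also changed sign, to Mars2 0.072, Vars2 0.073, Gatb 0.079 and Eif2ak4 0.13 with upper-quartile scaling and to Gatb 0.0014 and Eif2ak4 0.046 with no filter. Eif2ak4 was 0.043 with DESeq2, 0.031 among protein-coding genes and 0.035 with tumours 1 and 2 summed. The median of all genes moved with the scaling, and no other cause was tested.

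Depth limits the weakly expressed mitochondrial enzymes, and having 2 normal libraries limits every comparison. Counts without strand cannot separate overlapping genes such as Hars and Hars2. The tissues differ in cell makeup, handling and RNA classes, and these cannot be told apart from genotype.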
